A study of Mus musculus with 18 samples.

Results

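Interscapular brown adipose tissue (BAT) was compared between female mice of strain Sv129, aged 10 weeks, after 10 days in the cold (6°C) or in the warmth (28°C), a temperature near thermoneutrality for a mouse. The members are the 3 BAT arrays at 6°C and the 3 BAT arrays at 28°C, 6 of the 18 arrays of the series, chosen by the title of each array because the tissue field of the labels names none of these 6 arrays as BAT and the temperature field disagrees with the title of most of them. The other 12 arrays hold subcutaneous and mesenteric white fat (sWAT and mWAT) at the same temperatures. Per the study's methods the mice came to 6 or 28°C after a period at room temperature, each mouse had its own cage, chow and water were not limited, and none was transgenic or given a drug. Each array holds RNA of whole dissected tissue, so fewer cells of a type and less RNA per cell cannot be told apart. Which arrays come from 1 mouse is not given in the labels, and the number after an array below only names it.

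Brown fat makes heat. Noradrenaline from sympathetic nerves acts on adrenergic receptors of the brown adipocyte, adenylyl cyclases make cAMP, and cAMP starts the breakdown of stored triglyceride. The fatty acids set free are burnt in mitochondria and open uncoupling protein 1 (Ucp1), which lets protons back across the inner membrane without making ATP. Over days in the cold the tissue is known to change its lipid synthesis, its fuel use, its vessels and what it secretes.

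The array gives 1 intensity per probe set, on a linear scale and in arbitrary units, and differences below are log2 at 6°C minus log2 at 28°C with the standard error (SE) of the limma fit, from 3 arrays a group. Array medians were 126 to 128 at 6°C and 130.0 to 132 at 28°C, and arrays of 1 group correlated at r = 0.983 to 0.989 across probe sets, against 0.966 to 0.978 between the groups. The tissue label held: the mean log2 intensity of 9 brown adipocyte markers (Ucp1, Cidea and others, Elovl3 left out for its own large change) was 12.14, 12.22 and 12.19 at 6°C, against 12.05, 11.98 and 12.10 at 28°C, and lay between 7.94 and 10.52 on the white fat arrays. That of 10 markers of all adipocytes was 13.29, 13.23 and 13.29 at 6°C, against 13.23, 13.20 and 13.19 at 28°C. Skeletal muscle stood apart. The mean log2 intensity of 37 muscle markers was 7.68, 9.52 and 8.18 at 6°C, against 8.32, 12.07 and 11.42 at 28°C, so arrays 2 and 3 at 28°C held the most muscle RNA and array 1 at 28°C lay among the 6°C arrays. Of the 179 called genes named below by rule, 76 also passed with the muscle level as a covariate and 24 without those 2 arrays, where 1 array is left at 28°C and its spread is taken from the other groups.

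Of 18193 genes (1 probe set each, that of highest mean), 509 were higher at 6°C (2.8%) and 460 lower (2.53%) at an adjusted p under 0.01, together 5.33%, against 5.28% of all probe sets. The median change was 1.07 among the genes that rose and -1.0 among those that fell, and 286 and 233 of them changed at least 2-fold. The arrays of the 2 groups did not overlap in any of the 969 genes, which holds for 39.9% of all genes. Without the 2 muscle-rich arrays, with 1 array left at 28°C, the medians of the 509 and 460 genes were 1.01 and -0.95. Each gene kept at least 0.5 of its size. Its direction could not change there, because the 2 groups did not overlap in any of them. With the muscle covariate 206 and 143 passed, at medians of 1.0 and -0.98. Leaving out 1 BAT array gave 403 (without array 3 at 6°C) to 665 genes (without array 1 at 28°C), and a fit of the 6 BAT arrays alone gave 384. A call below is from the comparison of all arrays. The paragraphs give which calls were lost when 1 BAT array was left out and which held in either muscle setting. Counts of called genes in a list stand against 5.33% of all genes, and no list was tested as a set. Counts at an unadjusted p under 0.05 (limma) stand against 4822 of the 18193 genes.

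Among the 10 largest rises, Elovl3, which elongates fatty acids to very long chains, read 7221, 6835 and 8019 in the 6°C arrays, against 147, 89.7 and 96.7 in the 28°C arrays, a difference of 6.08 ± 0.62, adjusted p = 4.4e-05. Bmp8b, a secreted ligand of the bone morphogenetic protein family, read 1352, 1052 and 1854 in the 6°C arrays, against 58.1, 26.2 and 42.5 in the 28°C arrays (5.10 ± 0.31, adjusted p = 4.6e-07). Both genes lay near or under the array medians at 28°C and many times above them at 6°C, with a wide gap between the groups. 9030619P08Rik, a transcript related to the Ly-6 family of surface proteins, read 864, 1077 and 1566 in the 6°C arrays, against 21.8, 34.8 and 47.4 in the 28°C arrays (5.10 ± 0.33, adjusted p = 1.2e-06). Acot12, a cytosolic thioesterase that splits acetyl-CoA, read 444, 396 and 377 in the 6°C arrays, against 20.2, 27.5 and 29.1 in the 28°C arrays (4.0 ± 0.21, adjusted p = 1.6e-07), and its 3 arrays at 6°C lay closer together than those of Bmp8b. Rims2, a scaffold of the presynaptic active zone, read 210.3, 167 and 183 in the 6°C arrays, against 12.4, 11.2 and 15.1 in the 28°C arrays (3.86 ± 0.37, adjusted p = 2.6e-05). Neurocan, Ncan, a chondroitin sulfate proteoglycan of the brain, read 909, 1076 and 921 in the 6°C arrays, against 81.3, 95.0 and 49.9 in the 28°C arrays (3.73 ± 0.32, adjusted p = 1.6e-05). Adcy10, the soluble adenylyl cyclase that bicarbonate activates, read 702, 702 and 742 in the 6°C arrays, against 66.9, 65.9 and 70.3 in the 28°C arrays (3.40 ± 0.36, adjusted p = 6e-05), with little spread among the arrays of either group. The secreted serpin Serpina12 (vaspin) is described with the other secreted proteins, and the remaining 2 of the 10, 1700061I17Rik and 4921536K21Rik, have no named function (3.59 and 3.47). On average Elovl3, Bmp8b, 9030619P08Rik, Acot12, Rims2, Ncan, Adcy10, 1700061I17Rik and 4921536K21Rik at 28°C lay under the array medians. Of the probe sets of Rims2 3 of 5 were called higher, and of those of Acot12 2 of 3. Each other gene of the 10 had all its probe sets called higher. The calls of these 10 genes were kept in each of the 6 fits that left out 1 array. Elovl3, Bmp8b, 9030619P08Rik, Acot12, Rims2, Ncan, Adcy10, Serpina12, 1700061I17Rik and 4921536K21Rik also passed with the muscle covariate and Bmp8b, 9030619P08Rik, Acot12, Rims2, Ncan, Serpina12, 1700061I17Rik and 4921536K21Rik without the muscle-rich arrays (the others, adjusted p = 0.0112 to 0.0117).

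Among the 10 largest falls, Prr32, a proline-rich protein, read 36.0, 28.8 and 29.4 in the 6°C arrays, against 923, 828 and 667 in the 28°C arrays (-4.68 ± 0.74, adjusted p = 0.001). Rab17, a GTPase that directs vesicle recycling in epithelial cells, read 64.8, 34.1 and 27.5 in the 6°C arrays, against 426, 556 and 755 in the 28°C arrays (-3.84 ± 0.37, adjusted p = 2.6e-05). Snhg11, a long noncoding host gene of small nucleolar RNAs, read 248, 325 and 112 in the 6°C arrays, against 2414, 2699 and 3354 in the 28°C arrays (-3.75 ± 0.36, adjusted p = 3e-05). Slc16a7, the monocarboxylate transporter MCT2, was among the brighter of them, at 302, 446 and 245 in the 6°C arrays, against 2677, 2342 and 2248 in the 28°C arrays (-2.91 ± 0.26, adjusted p = 1.9e-05). B3galt2, a galactosyltransferase, read 41.5, 58.8 and 14.7 in the 6°C arrays, against 476, 369 and 442 in the 28°C arrays (-3.69 ± 0.46, adjusted p = 0.00018), and Ivns1abp, a kelch-repeat protein, read 189, 206 and 276 in the 6°C arrays, against 1555, 1839.5 and 1348 in the 28°C arrays (-2.83 ± 0.32, adjusted p = 8e-05). Prrt4, 2310015D24Rik and D630004K10Rik fell by 3.10, 2.80 and 2.80 on the log2 scale. Asph, whose locus encodes an aspartate hydroxylase and proteins of the muscle calcium store, lay highest in the 2 muscle-rich arrays and read 24.1, 36.2 and 46.2 in the 6°C arrays, against 99.4, 517 and 428 in the 28°C arrays. Its difference of -3.03 ± 0.67, adjusted p = 0.0083 was -1.77 with the muscle covariate and no longer passed (adjusted p = 0.0111). On average Prr32, Rab17, B3galt2, Prrt4, Asph and 2310015D24Rik at 6°C lay under the array medians. Probe sets called lower were 2 of 3 for B3galt2, 1 of 3 for Prrt4 and 2 of 6 for Asph. Each other gene of the 10 had all its probe sets called lower. Of these 10 genes the call of Asph was lost in 5 of the 6 fits that left out 1 array (without any but array 1 at 28°C; highest adjusted p = 0.0455), and the other 9 passed in all of them. Prr32, Rab17, Snhg11, Slc16a7, B3galt2, Ivns1abp, Prrt4, 2310015D24Rik and D630004K10Rik also passed with the muscle covariate (the other call, adjusted p = 0.0111) and Rab17, Snhg11, Slc16a7, Prrt4, 2310015D24Rik and D630004K10Rik without the muscle-rich arrays (the others, adjusted p = 0.0125 to 0.409).

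**Figure D1:**
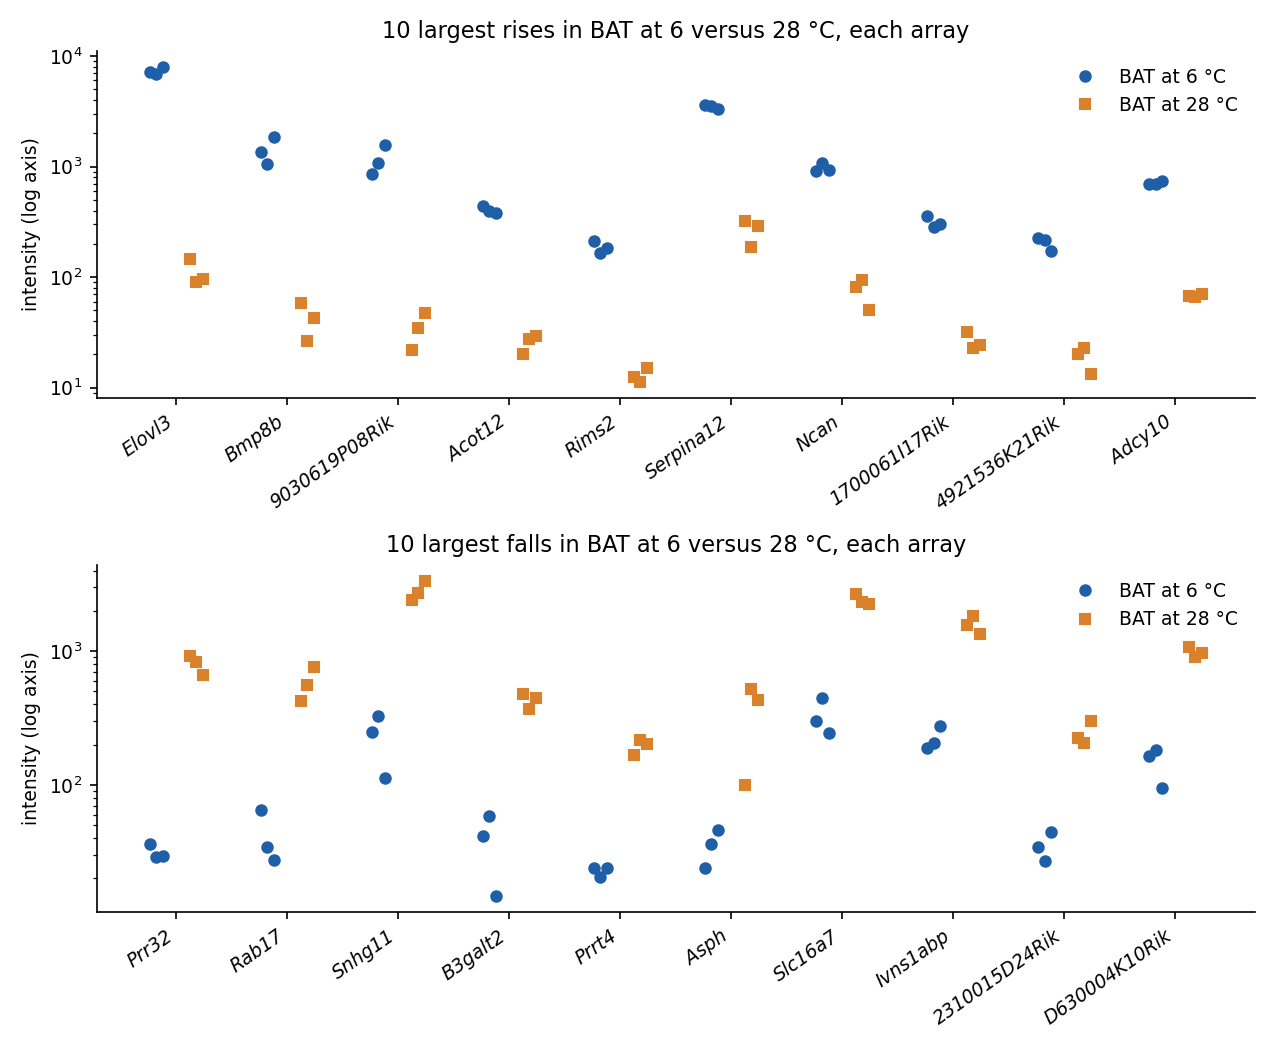
Intensity of each BAT array (log axis) for the 10 genes of largest rise and the 10 of largest fall, with circles for the 3 arrays at 6°C and squares for the 3 at 28°C. The 20 genes were picked among called probe sets whose 2 groups do not overlap. Asph is the gene where 1 array at 28°C (99.4) sits near the 6°C arrays.

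Of 25 measured genes of the brown fat thermogenic programme, 1 rose, Elovl3, and 0 fell, while 10 passed 0.05 before adjustment (limma) and 19 had a positive difference (median 0.27, against 0.01 over all genes). Slc27a2 also passed with centred arrays, with dim probe sets left out and with the variance trend, Dio2, Slc27a2 and Ucp3 in the fit of the 6 BAT arrays alone (4 genes called), and Acot11 with probe sets averaged, while none, Elovl3 included, passed without the muscle-rich arrays. Ucp1 itself was near the top of the array's range in both groups, at 21401, 20303 and 21595 in the 6°C arrays, against 17177, 16328 and 16569.8 in the 28°C arrays. The 3 arrays at 6°C lay above the 3 at 28°C, but the difference of 0.34 ± 0.29 did not pass (adjusted p = 0.523). The highest intensity on a BAT array was 23749.7 to 24596, and the part of this upper limit in the difference of Ucp1 was not tested. Dio2, which makes active thyroid hormone in the tissue, read 4933, 5937 and 6032 in the 6°C arrays, against 2589, 2047 and 2375 in the 28°C arrays (1.27 ± 0.45, adjusted p = 0.0852). The coactivator Ppargc1a, which drives mitochondrial genes, read 2229, 2812 and 2428 in the 6°C arrays, against 1901, 1341 and 1426 in the 28°C arrays (0.69 ± 0.40, adjusted p = 0.297). In both genes, as in Ucp1, the 6°C arrays all lay above the 28°C arrays. The 2 groups did not overlap in 39.9% of all genes. Slc27a2, a very long-chain acyl-CoA synthetase and transporter, came nearest to the threshold among those not called, at 7454, 5800.0 and 7319 in the 6°C arrays, against 2539, 2235 and 2498 in the 28°C arrays (1.49 ± 0.34, adjusted p = 0.0109). The values were 1.17 ± 0.32 for Ucp3, 0.86 ± 0.27 for the proton channel Otop1 and 0.68 ± 0.20 for the thioesterase Acot11. The nuclear receptor Esrra was at 0.63 ± 0.19 and the pantothenate kinase Pank1 at 0.41 ± 0.24. Lower values in the list were 0.02 ± 0.24 for the lipid droplet protein Cidea, 0.07 ± 0.18 for Cox8b, 0.05 ± 0.25 for Cox7a1 and 0.19 ± 0.17 for Zic1. The transcription factor Prdm16 was at -0.59 ± 0.23 and Lhx8 at -0.79 ± 0.45. The lineage factor Ebf2 was the lowest of the list, at -0.92 ± 0.25 (adjusted p = 0.0248). Of the 10 brown adipocyte markers, which also hold Elovl3, Dio2, Ppargc1a and Ucp1, 8 had a positive difference (median 0.13).

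**Figure D2:**
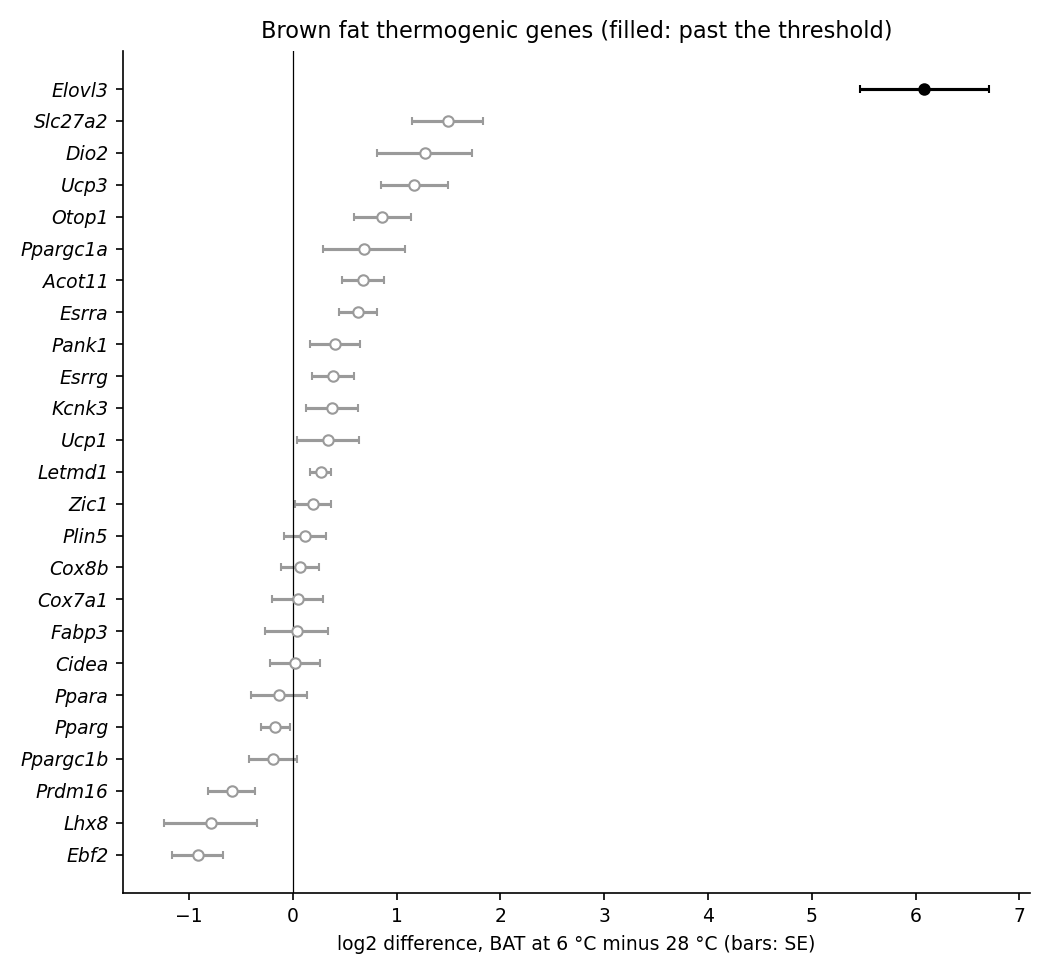
Log2 difference (6°C minus 28°C) of each of the 25 thermogenic genes in BAT, with bars of 1 SE. Only Elovl3 (6.08) is past the threshold, and Ucp1 (0.34), Cidea (0.02) and Prdm16 (-0.59) lie near 0 or below.

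Upstream of cAMP, 2 of the 9 adrenergic receptors listed have a probe set named here, at 0.32 ± 0.21 for Adra1b and -0.20 ± 0.24 for Adra2c, and neither passed. Of 10 adenylyl cyclases, 2 rose, Adcy10 and Adcy3, and 0 fell. Adcy3, a membrane cyclase coupled to stimulatory G proteins, read 6643, 6556 and 7375 in the 6°C arrays, against 2356, 2476 and 2567 in the 28°C arrays (1.47 ± 0.18, adjusted p = 0.00015), and each of its 4 probe sets was higher at 6°C. None of the 6 protein kinase A subunits passed (0 at an unadjusted p under 0.05 from limma, values between -0.16 and 0.25), and 1 of 21 phosphodiesterases did, Pde7b, which breaks down cAMP (1.40 ± 0.17, adjusted p = 0.00014). Regulators of G protein signalling moved both ways: of 19 genes Rgs12 rose (0.96 ± 0.15) and Rgs2 fell (-1.51 ± 0.29). Of 42 nuclear receptors 3 rose and 1 fell (9.52%, against 5.33% of all genes tested, with a median of 0.18). Nr4a3, an orphan receptor and immediate early gene of cAMP signalling, read 494, 309.9 and 784 in the 6°C arrays, against 138, 162 and 161 in the 28°C arrays (1.69 ± 0.35, adjusted p = 0.00613), with a spread of over 2-fold among the cold arrays. Nr4a2, of the same family, read 1201, 1754 and 2289 in the 6°C arrays, against 746, 724 and 607 in the 28°C arrays (1.29 ± 0.28, adjusted p = 0.00709), and the third member, Nr4a1, read 518, 141 and 267 at 6°C, against 161, 132 and 111 at 28°C (1.01 ± 0.35, adjusted p = 0.072), where 1 cold array lay within the range of the 28°C arrays. Ppard, a fatty acid-activated receptor, rose (0.75 ± 0.13), and Rorb fell (-0.86 ± 0.19). Rorb lost the call whichever BAT array was left out, Rgs2 and Nr4a2 without any array but array 1 at 6°C and Nr4a3 without any array but array 2 at 6°C. Ppard lost it without array 3 at 6°C or array 2 at 28°C (highest adjusted p = 0.0128 to 0.0407). Adcy3, Adcy10, Pde7b and Rgs12 also passed with the muscle covariate (the other calls, adjusted p = 0.0175 to 0.0479) and none without the muscle-rich arrays (adjusted p = 0.0112 to 0.221). On average Rgs12 at 28°C and Rorb at 6°C lay under the array medians.

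The promoters of Nr4a2 and Nr4a3 are shown because both genes rose and are textbook targets of the cAMP-responsive factor CREB, which binds TGACGTCA (the cAMP response element) and its core site TGACG. The windows run from 250 bases before to 50 after the RefSeq start of the gene (GRCm38.p6), chr2:57123954-57124253, minus strand, for Nr4a2 and chr4:48045055-48045354, plus strand, for Nr4a3, written 5′ to 3′ along the gene, with each core site in capitals (TGACG or, on the other strand, CGTCA).
Nr4a2: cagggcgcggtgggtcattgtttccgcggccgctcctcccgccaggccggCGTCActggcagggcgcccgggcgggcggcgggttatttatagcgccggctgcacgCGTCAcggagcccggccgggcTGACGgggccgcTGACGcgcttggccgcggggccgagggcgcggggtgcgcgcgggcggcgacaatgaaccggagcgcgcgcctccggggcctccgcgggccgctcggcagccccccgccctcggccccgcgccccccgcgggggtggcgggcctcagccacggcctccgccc
Nr4a3: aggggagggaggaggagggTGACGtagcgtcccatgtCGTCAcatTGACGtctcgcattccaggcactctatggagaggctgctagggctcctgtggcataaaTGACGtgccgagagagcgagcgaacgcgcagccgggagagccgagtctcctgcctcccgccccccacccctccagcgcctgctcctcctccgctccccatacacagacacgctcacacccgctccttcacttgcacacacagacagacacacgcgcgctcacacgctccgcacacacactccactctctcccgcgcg
Each window holds 4 core sites and neither holds the full element. At least 1 core site is found in 20.81% of the 32851 promoters of the table and 4 or more in 0.23%, and the full element, of which each copy holds 2 core sites, in 1.79%. Among the 38 nuclear receptor genes with a promoter in the table, 14 had at least 1 core site, and 3 had 4 or more. These were the 2 genes shown and Nr4a1, which did not pass. Over all genes that rose the share with a core site was 23.79%, and over those that fell 26.21%.

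None of 20 circadian clock genes passed, while 7 had an unadjusted p under 0.05 from limma. Over all genes 4822 of 18193 did. The output factor Dbp had a value of 1.31 ± 0.36 (adjusted p = 0.0278), Bhlhe40 1.03 ± 0.35, Ciart 0.90 ± 0.37, Nr1d1 0.70 ± 0.31 and the activator Arntl (Bmal1) -0.97 ± 0.39, while Per2 was at 0.38 ± 0.60, Per1 at 0.37 ± 0.24, Clock at 0.11 ± 0.19 and Cry1 at -0.26 ± 0.17. None of 13 genes of thyroid hormone handling passed either (3 at an unadjusted p under 0.05), and Dio2 had the largest value. Of 27 insulin signalling genes Mtor rose (0.82 ± 0.14), and Irs1, the receptor substrate (-1.11 ± 0.16, adjusted p = 0.00044), and Pik3r1, the regulatory subunit of PI 3-kinase (-0.88 ± 0.19), fell. Pik3r1 lost the call without any array but array 1 at 28°C and Mtor without arrays 1 or 3 at 6°C or arrays 2 or 3 at 28°C (highest adjusted p = 0.0126 to 0.0366). Irs1 also passed with the muscle covariate (the other calls, adjusted p = 0.0192 to 0.0309) and none without the muscle-rich arrays (adjusted p = 0.0229 to 0.26).

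Among the enzymes that make fatty acids, those that passed were elongases. Of 13 elongases and their partners 3 rose and 0 fell: Elovl3, Elovl4 and Elovl6. Elovl4, which makes the longest fatty acids, read 147, 157 and 228 in the 6°C arrays, against 38.6, 25 and 24.4 in the 28°C arrays (2.60 ± 0.43, adjusted p = 0.00148). Elovl6, which takes palmitate to stearate, rose by 0.84 ± 0.11 (adjusted p = 0.00027). Their partners in the cycle, such as the dehydratase Hacd2 (0.59 ± 0.16) and the reductase Hsd17b12 (0.34 ± 0.11), did not pass. None of 22 genes of fatty acid synthesis and desaturation passed (9 at an unadjusted p under 0.05 from limma, median 0.13): Fasn was at 0.40 ± 0.10, Acly at 0.08 ± 0.10, Acaca at 0.17 ± 0.10, the stearoyl-CoA desaturase Scd1 at 0.08 ± 0.09, and the polyunsaturated fatty acid desaturases Fads1 and Fads2 at -0.85 ± 0.26 and -0.89 ± 0.28. Of 17 acyl-CoA thioesterases 3 rose and 2 fell (median 0.65). Beside Acot12 these were the peroxisomal Acot8 (1.31 ± 0.11, adjusted p = 9.1e-06) and Them4 (1.24 ± 0.22), and, falling, Them7 (-2.04 ± 0.23, adjusted p = 8.9e-05) and Them6 (-1.33 ± 0.12, adjusted p = 1.9e-05). Of 14 acyl-CoA synthetases Acsf2 (1.38 ± 0.13, adjusted p = 1.9e-05) and Acsl5 (1.38 ± 0.15, adjusted p = 6e-05) rose and the medium-chain enzyme Acsm5 fell (-2.05 ± 0.32, adjusted p = 0.00091). Them4 lost the call without array 3 at 6°C or array 2 at 28°C and Elovl4 without array 3 at 6°C (highest adjusted p = 0.0101 to 0.0128). Elovl3, Acot12, Elovl6, Acot8, Them7, Them6, Acsf2, Acsl5 and Acsm5 also passed with the muscle covariate (the other calls, adjusted p = 0.0125 to 0.0177) and Acot12, Acot8, Them7, Them6 and Acsf2 without the muscle-rich arrays (the others, adjusted p = 0.0117 to 0.113). On average Elovl4 at 28°C and Them6, Them7 and Acsm5 at 6°C lay under the array medians.

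Of 17 genes of cholesterol synthesis 6 rose and 0 fell, and 16 had a positive difference (median 0.63). Fdps, which makes farnesyl diphosphate, read 4169, 4023 and 4274 in the 6°C arrays, against 1459, 1531 and 1339 in the 28°C arrays (1.53 ± 0.13, adjusted p = 1.6e-05), with the groups far apart. Cyp51, the lanosterol demethylase, read 2821, 3201 and 4150.4 in the 6°C arrays, against 1541, 1768 and 1447 in the 28°C arrays (1.08 ± 0.23, adjusted p = 0.00663). Nsdhl, a later sterol dehydrogenase, read 3420.5, 3807 and 3738 in the 6°C arrays, against 1707, 1961 and 1598 in the 28°C arrays (1.06 ± 0.16, adjusted p = 0.00071). Tm7sf2 (0.94 ± 0.17), Pmvk (0.80 ± 0.15) and Idi1 (0.63 ± 0.11), enzymes before and after squalene, rose as well, each by under 2-fold. Sqle, which oxidizes squalene, narrowly missed the threshold (0.94 ± 0.22, adjusted p = 0.0109), and Hmgcs1, at the head of the pathway, was at 0.13 ± 0.10. In the 2 white depots the 6 genes had differences between -0.14 and 0.80. Of 19 genes of cholesterol uptake and export 0 rose and 1 fell, Apoe. Cyp51 lost the call whichever BAT array was left out, Pmvk without arrays 1, 2 or 3 at 6°C or array 3 at 28°C and Tm7sf2 without array 2 at 6°C or array 2 at 28°C. Idi1 lost it without array 3 at 6°C or array 3 at 28°C (highest adjusted p = 0.0123 to 0.0381). Fdps, Nsdhl, Tm7sf2 and Apoe also passed with the muscle covariate (the other calls, adjusted p = 0.0122 to 0.0501) and Fdps without the muscle-rich arrays (the others, adjusted p = 0.0152 to 0.126).

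The promoters of Idi1, Nsdhl and Cyp51 are shown as 3 of the 5 risen genes of this pathway that the table holds, chosen after their matches were seen, with each CCAAT box (CCAAT or ATTGG) in capitals, the site of the factor NF-Y that is known to work beside the sterol-regulated factor SREBP-2. They lie at chr13:8885356-8885655, plus strand, at chrX:72918271-72918570, plus strand, and at chr5:4104648-4104947, minus strand, over the same 300-base window (RefSeq, GRCm38.p6).
Idi1: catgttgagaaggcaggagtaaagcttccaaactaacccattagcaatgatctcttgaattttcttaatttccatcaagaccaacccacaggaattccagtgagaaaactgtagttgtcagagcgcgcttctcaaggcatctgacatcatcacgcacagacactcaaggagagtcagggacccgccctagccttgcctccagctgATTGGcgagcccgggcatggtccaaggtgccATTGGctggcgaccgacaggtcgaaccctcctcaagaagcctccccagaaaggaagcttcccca
Nsdhl: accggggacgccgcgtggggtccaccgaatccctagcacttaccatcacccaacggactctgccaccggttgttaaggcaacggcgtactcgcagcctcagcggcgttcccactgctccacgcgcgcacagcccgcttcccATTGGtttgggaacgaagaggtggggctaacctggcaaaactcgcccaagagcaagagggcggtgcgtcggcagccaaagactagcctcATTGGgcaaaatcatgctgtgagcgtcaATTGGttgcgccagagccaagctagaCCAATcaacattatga
Cyp51: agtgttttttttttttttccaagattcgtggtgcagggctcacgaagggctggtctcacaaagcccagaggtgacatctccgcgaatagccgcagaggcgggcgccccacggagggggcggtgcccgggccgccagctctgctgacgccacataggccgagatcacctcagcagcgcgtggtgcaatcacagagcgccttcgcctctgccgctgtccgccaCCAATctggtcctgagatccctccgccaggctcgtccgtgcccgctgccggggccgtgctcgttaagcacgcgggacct
Idi1 holds 2 boxes, Nsdhl 4 and Cyp51 1. Of the 17 measured genes 14 have a promoter in the table, and each of them, the 5 that rose and the 9 that did not pass, holds at least 1 box in at least 1 listed promoter, against 37.41% of all promoters. The share was 36.8% in promoters of all genes that rose and 35.85% in those of all genes that fell. The sterol response element in the form TCACNCCAC, on either strand, is in 1.24% of promoters and in none of the 3 shown.

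Peroxisomes, which shorten very long-chain fatty acids, had 6 genes that rose and 0 that fell of 40 measured (30 positive, median 0.32). Ehhadh, the bifunctional enzyme of peroxisomal oxidation, read 4840.5, 3236 and 1886 in the 6°C arrays, against 875, 739 and 617 in the 28°C arrays (2.07 ± 0.31, adjusted p = 0.00064), and its cold arrays differed over 2-fold among themselves. Acox2, an oxidase of branched and bile acid side chains, read 325, 249 and 206 in the 6°C arrays, against 70.5, 55.4 and 51.2 in the 28°C arrays (2.13 ± 0.27, adjusted p = 0.00021). The thioesterase Acot8, the carrier Slc25a17 (1.29 ± 0.19, adjusted p = 0.00057), the thiolase Acaa1b (1.12 ± 0.25, adjusted p = 0.00842) and the membrane biogenesis factor Pex16 (0.90 ± 0.18, adjusted p = 0.00516) were the others. In mitochondria, of 28 genes of fatty acid oxidation 1 rose, Mlycd, which removes the malonyl-CoA that blocks fatty acid entry (1.17 ± 0.20, adjusted p = 0.00143), and 2 fell, Acad10 (-0.74 ± 0.16) and Acad12 (-0.75 ± 0.17). The carnitine transporter Slc22a5 (0.65 ± 0.15, adjusted p = 0.0112) and the carnitine palmitoyltransferase Cpt2 (0.56 ± 0.14, adjusted p = 0.0178) did not pass. Of 8 genes of ketone metabolism, Bdh1, which interconverts the 2 ketone bodies, read 154, 206 and 341 in the 6°C arrays, against 14.7, 45.2 and 51.2 in the 28°C arrays (2.77 ± 0.49, adjusted p = 0.00219), the acetoacetyl-CoA synthetase Aacs rose (1.40 ± 0.28), and the transporter Slc16a7 fell. Acaa1b, Pex16, Acad10, Acad12 and Aacs lost their calls whichever BAT array was left out and Bdh1 without array 3 at 6°C (highest adjusted p = 0.0143 to 0.0506). Ehhadh, Acox2, Acot8, Slc25a17, Bdh1 and Slc16a7 also passed with the muscle covariate (the other calls, adjusted p = 0.0132 to 0.0588) and Acot8, Bdh1 and Slc16a7 without the muscle-rich arrays (the others, adjusted p = 0.0362 to 0.232). On average Acox2 and Bdh1 at 28°C lay under the array medians.

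Genes that build triglyceride and phospholipid had 4 that rose and 0 that fell of 32 (24 positive, median 0.27). Among those that rose were Gpat4, which starts glycerolipid synthesis (1.07 ± 0.14, adjusted p = 0.00024), and Agpat1, the next acyltransferase (0.88 ± 0.16, adjusted p = 0.00311). Lpin2, a phosphatidate phosphatase (0.63 ± 0.13), and Pcyt2, of phosphatidylethanolamine synthesis (0.75 ± 0.17), were the others. Agpat2 was just outside the threshold (0.70 ± 0.16, adjusted p = 0.0106). Of 27 lipid droplet and lipolysis genes 4 rose, Abhd5, the coactivator of the triglyceride lipase (0.93 ± 0.19, adjusted p = 0.00489), the lysosomal lipase Lipa (1.24 ± 0.15, adjusted p = 0.00015), the monoglyceride lipase Abhd6 (0.68 ± 0.12) and the channel Aqp11 (1.81 ± 0.33, adjusted p = 0.00278). Hilpda, a droplet protein that inhibits lipolysis, fell (-0.90 ± 0.15, adjusted p = 0.00183), and another inhibitor, G0s2, was at -1.0 ± 0.33 (adjusted p = 0.061). Of 29 genes of sphingolipid metabolism 3 of ceramide turnover rose and 0 fell: the ceramidase Acer2 (1.28 ± 0.25), the ceramide synthase Cers4 (0.81 ± 0.16) and the lyase Sgpl1 (0.69 ± 0.12). Of 30 genes of lipoprotein lipase and fatty acid uptake 0 rose and 1 fell, Apoe, which read 2184, 3512 and 2359 in the 6°C arrays, against 7108, 7791 and 8829 in the 28°C arrays (-1.59 ± 0.17, adjusted p = 6e-05), and lipoprotein lipase itself, Lpl, was at 0.16 ± 0.09. Pcyt2 and Abhd5 lost their calls whichever BAT array was left out, Lpin2 without any array but array 2 at 6°C and Cers4 without any array but array 2 at 28°C. Agpat1 lost it without arrays 1 or 3 at 6°C or arrays 2 or 3 at 28°C, Abhd6 without arrays 1 or 2 at 6°C or arrays 2 or 3 at 28°C and Acer2 without arrays 1 or 3 at 6°C or arrays 1 or 3 at 28°C. Aqp11 lost it without array 3 at 6°C or arrays 1 or 3 at 28°C, Hilpda without array 3 at 6°C or array 2 at 28°C and Sgpl1 without array 1 at 6°C or array 2 at 28°C (highest adjusted p = 0.0111 to 0.0385). Gpat4, Lipa and Apoe also passed with the muscle covariate (the other calls, adjusted p = 0.0105 to 0.0634) and none without the muscle-rich arrays (adjusted p = 0.0152 to 0.198).

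Among subunits of the respiratory chain, none of 35 subunits of complex I passed, none of 14 of complexes II and III, and none of 17 of complex IV, with medians of 0.02, 0.01 and just under 0 and median SEs of 0.11, 0.12 and 0.11. Subunits of complex I lay between -0.15 (Ndufa7) and 0.32 (Ndufs4). At an unadjusted p under 0.05 from limma there were 1, 1 and 4 of them. Cox6a2, the heart and muscle form of a complex IV subunit, read 162, 464 and 258 in the 6°C arrays, against 208, 3459 and 2142 in the 28°C arrays, highest in the 2 muscle-rich arrays (-2.10 ± 0.89, and -0.29 ± 0.31 with the muscle covariate). Of 18 ATP synthase genes 1 fell, Atpif1, the inhibitor of the enzyme's reverse reaction (-0.58 ± 0.12, adjusted p = 0.00704), and Atp5g1, a c-ring subunit, was at -0.90 ± 0.25 (adjusted p = 0.0272). None of 26 citrate cycle genes passed (3 at an unadjusted p under 0.05, median 0.02), nor of 24 genes of branched-chain amino acid breakdown (8, median 0.01), nor of 31 genes of mitochondrial dynamics and import (4). The highest value was 0.32 in complex I and 0.35 in complex IV (Cox4i2). Atpif1 lost the call whichever BAT array was left out (highest adjusted p = 0.037). Atpif1 had an adjusted p of 0.0495 with the muscle covariate and of 0.172 without the muscle-rich arrays.

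The lists around the chain (assembly, carriers, cofactors and mitochondrial expression) held 222 genes, of which 13 rose and 2 fell (6.76%, against 5.33% of all genes tested). Of 43 assembly factors 2 rose and 0 fell, Sco1, a copper chaperone of complex IV (1.31 ± 0.17, adjusted p = 0.00021), and Coa7 (1.10 ± 0.18, adjusted p = 0.00136). Of 49 mitochondrial carriers 4 rose and 1 fell: Slc25a34, a carrier of unknown substrate, read 2921, 2210.2 and 1808 in the 6°C arrays, against 357, 170.5 and 246 in the 28°C arrays (3.20 ± 0.36, adjusted p = 8.9e-05), the peroxisomal Slc25a17 rose by 1.29, the ornithine carrier Slc25a15 by 0.64 and the NAD carrier Slc25a51 by 0.61, and Slc25a14 fell by 0.57. Letm1, a cation exchanger of the inner membrane, was higher on all 4 of its probe sets. The brightest read 7475, 7129 and 7694 in the 6°C arrays, against 3286, 2419.9 and 2824 in the 28°C arrays (1.40 ± 0.16, adjusted p = 9.6e-05), and the other 3 had differences of 2.86, 2.87 and 3.22. The 4 probe sets thus gave 1 direction and sizes between 1.40 and 3.22. Of 15 genes of ubiquinone Coq10b (0.85 ± 0.17) and Adck2 (0.71 ± 0.11) rose, and of 76 mitochondrial ribosomal proteins Mrpl54 (0.98 ± 0.16), Mrpl43 (0.62 ± 0.10) and Mrpl20 (0.60 ± 0.12) rose, with 0 falling in either list and medians of 0.29 and 0.06. Coasy, the last enzyme of coenzyme A synthesis, rose (0.81 ± 0.18) and Nudt8, which degrades coenzyme A, fell (-0.59 ± 0.11), of 17 genes. Of 24 genes of mitochondrial DNA and its expression 1 rose, Mto1, a tRNA modifying enzyme (0.55 ± 0.12). Mrpl20 and Mto1 lost their calls whichever BAT array was left out, Coq10b and Coasy without any array but array 1 at 28°C and Slc25a15 without arrays 1 or 3 at 6°C or arrays 2 or 3 at 28°C. Nudt8 lost it without arrays 1, 2 or 3 at 6°C or array 3 at 28°C, Slc25a51 without array 3 at 6°C or arrays 2 or 3 at 28°C and Slc25a14 without arrays 1 or 3 at 6°C or array 2 at 28°C. Mrpl43 lost it without array 3 at 6°C or array 2 at 28°C (highest adjusted p = 0.0104 to 0.0478). Sco1, Slc25a34, Slc25a17, Letm1 and Mrpl54 also passed with the muscle covariate (the other calls, adjusted p = 0.0106 to 0.0607) and none without the muscle-rich arrays (adjusted p = 0.0198 to 0.288).

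Of 21 genes of heme synthesis and breakdown 1 rose and 3 fell. Hmox1, which opens the heme ring, rose, at 1389, 941 and 925 in the 6°C arrays, against 390.1, 414 and 469 in the 28°C arrays (1.33 ± 0.20, adjusted p = 0.00069). Alas1, the first step of heme synthesis (-0.96 ± 0.21, adjusted p = 0.00832), and both biliverdin reductases, Blvra (-0.90 ± 0.13, adjusted p = 0.00066) and Blvrb (-0.71 ± 0.14, adjusted p = 0.00371), which act after Hmox1, fell. Mt2, a metallothionein that binds zinc and copper, read 11214, 7502 and 9716 in the 6°C arrays, against 1798, 1227 and 1509.6 in the 28°C arrays (2.65 ± 0.42, adjusted p = 0.00107), the only one of 22 metal handling genes to rise, while the copper oxidase Heph (-1.60 ± 0.26, adjusted p = 0.00142) and the metal reductase Steap4 (-0.91 ± 0.18) fell. Of 30 NRF2 targets and antioxidant enzymes Gclm, of glutathione synthesis (1.40 ± 0.18, adjusted p = 0.00019), Hmox1 and the mitochondrial reductase Txnrd2 (0.71 ± 0.16) rose and 0 fell. Of 23 glutathione S-transferases 0 rose and 3 fell: Gstt1, which read 612, 697 and 644 in the 6°C arrays, against 1821, 2300.3 and 2116 in the 28°C arrays (-1.67 ± 0.20, adjusted p = 0.00012), Mgst3 (-1.20 ± 0.26) and Gstm2 (-0.93 ± 0.14). Gclm and the 3 transferases, which make and use glutathione, thus moved in opposite directions. Alas1, Txnrd2 and Mgst3 lost their calls whichever BAT array was left out, Blvrb without any array but array 2 at 6°C and Steap4 without arrays 1 or 3 at 6°C or arrays 2 or 3 at 28°C (highest adjusted p = 0.0212 to 0.0506). Hmox1, Blvra, Mt2, Gclm, Gstt1 and Gstm2 also passed with the muscle covariate (the other calls, adjusted p = 0.013 to 0.0637) and none without the muscle-rich arrays (adjusted p = 0.0164 to 0.299).

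In carbohydrate metabolism, 4 of 29 genes of glucose uptake and glycolysis rose and 0 fell, and these 4 act in opposite directions of the pathway. Fbp2, a fructose bisphosphatase of gluconeogenesis known mainly from muscle, read 5852, 5159 and 5656 in the 6°C arrays, against 1802, 1516 and 1323 in the 28°C arrays (1.85 ± 0.26, adjusted p = 0.00048), with the lowest value in a muscle-rich array. Fbp1, the liver form, read 2913, 2579.7 and 3157 in the 6°C arrays, against 822, 1062 and 1195 in the 28°C arrays (1.5 ± 0.28, adjusted p = 0.0034). Hk1, a hexokinase (1.14 ± 0.19, adjusted p = 0.00153), and Pfkp, the platelet form of phosphofructokinase (1.03 ± 0.15, adjusted p = 0.00067), commit glucose to breakdown. Gys2, the liver form of glycogen synthase, read 5081, 4959 and 5884 in the 6°C arrays, against 1261, 1073 and 1016 in the 28°C arrays (2.25 ± 0.23, adjusted p = 4.5e-05), and of 24 glycogen genes Phkb rose too (0.68 ± 0.13) while the brain form of glycogen phosphorylase, Pygb, fell (-1.09 ± 0.19, adjusted p = 0.00203). The muscle forms Pgam2 (-2.26 ± 1.36), Eno3 (-1.87 ± 0.79) and Pygm (-1.95 ± 0.96) did not pass, and with the muscle covariate they were 0.56, -0.28 and -0.15. Of 14 genes of the pentose phosphate pathway and ribose use Rbks, a ribokinase (1.37 ± 0.18, adjusted p = 0.00023), and Rpia (0.55 ± 0.12) rose and Prps1 fell (-0.87 ± 0.14; median of the list 0.46). Of 22 genes that handle pyruvate and lactate 0 rose and 1 fell, Ldhd (-0.76 ± 0.17), and the kinases and phosphatases of pyruvate dehydrogenase did not pass (Pdp1 -0.78 ± 0.22, Pdp2 0.71 ± 0.19). Phkb and Ldhd lost their calls whichever BAT array was left out, Rpia without any array but array 1 at 6°C and Fbp1 without arrays 1 or 3 at 6°C or arrays 1 or 2 at 28°C. Pygb lost it without array 3 at 6°C or array 3 at 28°C (highest adjusted p = 0.0123 to 0.0443). Fbp2, Hk1, Pfkp, Gys2 and Rbks also passed with the muscle covariate (the other calls, adjusted p = 0.01 to 0.0435) and none without the muscle-rich arrays (adjusted p = 0.0123 to 0.145).

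In serine and one-carbon metabolism 0 of 25 genes rose and 2 fell, Phgdh, the first step of serine synthesis, at 222, 281 and 187 in the 6°C arrays, against 558, 908 and 880.1 in the 28°C arrays (-1.75 ± 0.30, adjusted p = 0.00194), and Mtr, methionine synthase (-1.42 ± 0.20, adjusted p = 0.00048). Phgdh was lower at 28°C in array 1 than in the 2 muscle-rich arrays, and its difference was -1.47 with the muscle covariate and did not pass (adjusted p = 0.017). Of 29 amino acid transporters Slc3a2, the heavy chain shared by several of them (1.12 ± 0.13, adjusted p = 0.00014), and Slc43a2 (1.15 ± 0.21) rose and the cationic transporter Slc7a2 fell (-1.45 ± 0.29). Futile cycles of creatine and calcium are other known routes of heat. Of 20 such genes Alpl, the alkaline phosphatase that hydrolyses phosphocreatine in thermogenic fat, read 2704, 2224 and 3450.0 in the 6°C arrays, against 693, 534 and 611 in the 28°C arrays (2.17 ± 0.20, adjusted p = 1.9e-05). The calcium release channel Ryr2 read 589.5, 656 and 779.7 in the 6°C arrays, against 169.9, 138 and 217 in the 28°C arrays (1.96 ± 0.39, adjusted p = 0.00482). Both lay highest in cold array 3. The muscle genes of this list, Casq1 (-3.54 ± 1.21), Ryr1 (-3.04 ± 1.13) and Ckm (-2.75 ± 1.5), did not pass, and with the muscle covariate Ckm was 0.24 ± 0.63. Ryr2 lost the call whichever BAT array was left out, Slc7a2 without any array but array 2 at 6°C and Slc43a2 without arrays 1 or 3 at 6°C or arrays 2 or 3 at 28°C. Phgdh lost it without array 3 at 6°C or arrays 2 or 3 at 28°C (highest adjusted p = 0.0126 to 0.0265). Mtr, Slc3a2 and Alpl also passed with the muscle covariate (the other calls, adjusted p = 0.017 to 0.0337) and Alpl without the muscle-rich arrays (the others, adjusted p = 0.0158 to 0.184).

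Myoglobin, Mb, ran against the other muscle markers. It read 5845, 5377 and 8364 in the 6°C arrays, against 491, 3951 and 2667 in the 28°C arrays. Each cold array was above each warm one although arrays 2 and 3 at 28°C held the most muscle RNA. Groups did not overlap in 39.9% of all genes. The difference of Mb, 1.89 ± 0.61, did not pass (adjusted p = 0.0557), and Mb was the only one of 37 muscle markers with a positive difference. With the muscle covariate, a mean over the list that includes Mb, it was 2.93 ± 0.42 (adjusted p = 0.00154), and without the 2 muscle-rich arrays, set against array 1 at 28°C alone (its lowest value) with the spread of the other groups, 3.71 ± 0.56 (adjusted p = 0.00782).

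Cytoplasmic ribosomal proteins had values below 0 almost throughout. Of 44 measured, 5 had a positive difference, 30 passed 0.05 before adjustment (limma), and the median was -0.28. By the adjusted test 3 fell, Rpsa (-0.54 ± 0.10), Rps4x (-0.50 ± 0.10) and Rps18 (-0.46 ± 0.10), and 1 rose, the tissue-restricted paralog Rpl39l, which read 2092, 2642 and 2438 in the 6°C arrays, against 856, 884 and 889 in the 28°C arrays (1.44 ± 0.31, adjusted p = 0.00749). Ribosomal protein genes have many near-identical copies in the genome, so probe sets can share signal between them, and for Rpsa the mean over its probe sets gave 0.07 in place of -0.54. None of 47 translation initiation factors passed (11 at an unadjusted p under 0.05, median -0.05). Of 47 proteasome genes Psmd7 (0.68 ± 0.14) and Psmc4 (0.52 ± 0.10), of the regulatory particle, rose, and Psme1, an activator that interferon induces, fell (-0.77 ± 0.17). The immunoproteasome subunits Psmb8, Psmb9 and Psmb10 were at -0.93 ± 0.39, -0.92 ± 0.45 and -0.92 ± 0.21, none past the threshold. Of 33 genes of protein folding in the endoplasmic reticulum Manf rose (0.83 ± 0.18) and Xbp1, a transcription factor of the unfolded protein response, fell (-1.03 ± 0.15, adjusted p = 0.00066). Of 25 heat shock genes Hspb8 rose (0.81 ± 0.17) and Hspa12a fell (-2.21 ± 0.25, adjusted p = 8e-05), and none of 35 genes of ubiquitin, autophagy and lysosome control passed (11 at an unadjusted p under 0.05). Rps4x, Rps18, Rpl39l, Psmd7, Psmc4, Psme1 and Manf lost their calls whichever BAT array was left out, Hspb8 without any array but array 2 at 28°C and Rpsa without arrays 1 or 3 at 6°C or arrays 2 or 3 at 28°C (highest adjusted p = 0.0178 to 0.0456). Xbp1 and Hspa12a also passed with the muscle covariate (the other calls, adjusted p = 0.0179 to 0.051) and none without the muscle-rich arrays (adjusted p = 0.0143 to 0.187).

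**Figure D3:**
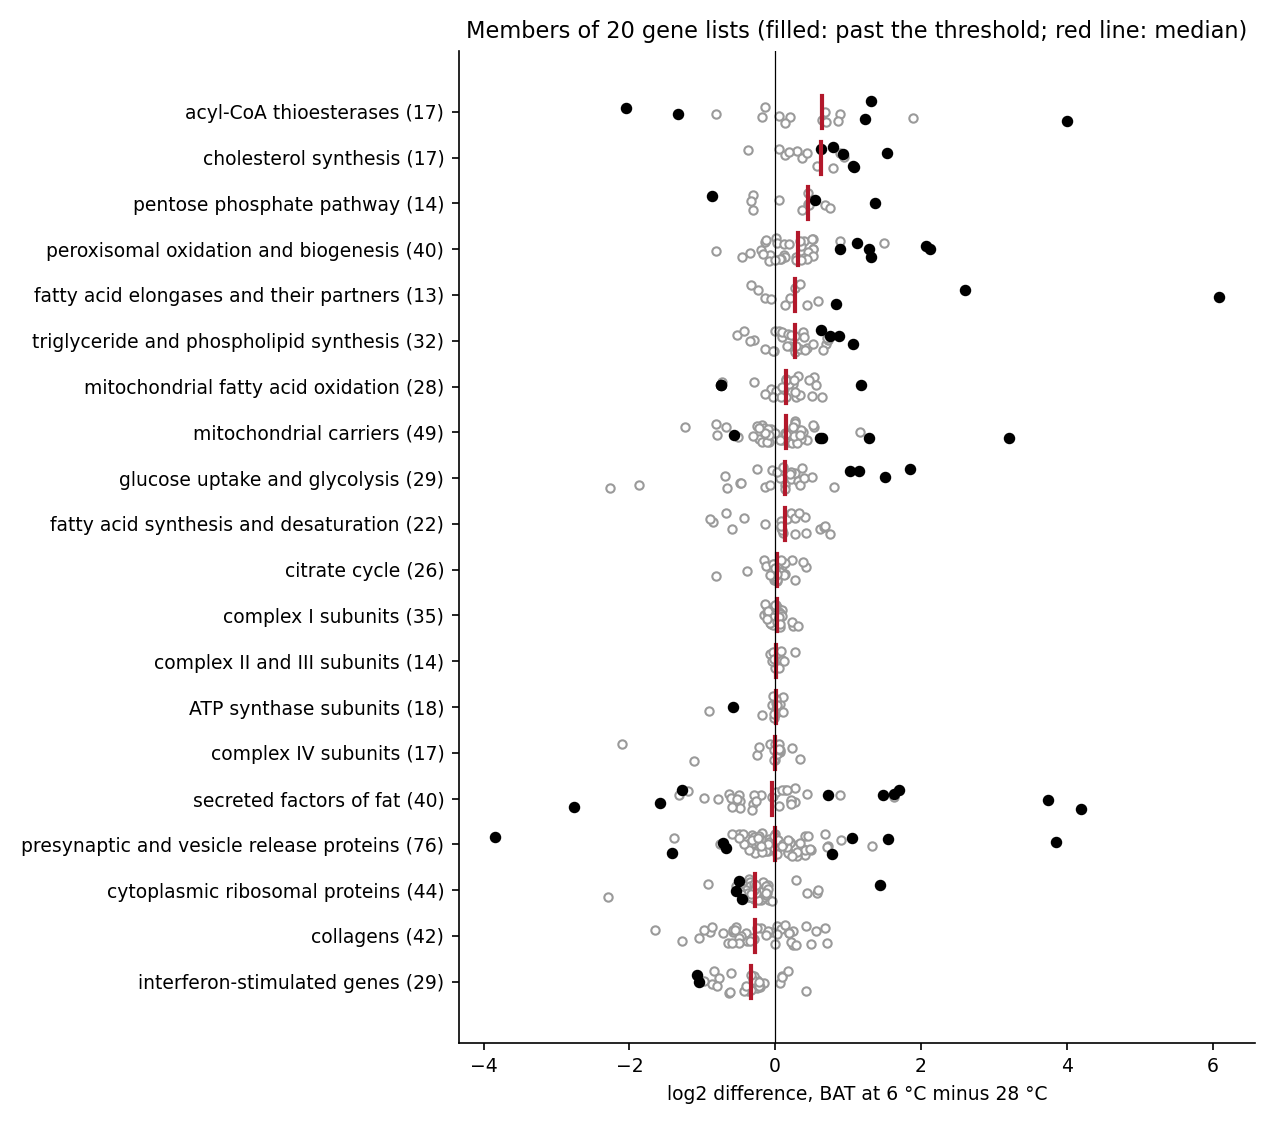
Log2 difference (6°C minus 28°C) in BAT of each measured member of 20 gene lists (number of members in brackets), with filled points past the threshold and a red line at the median of the list. Thioesterases (0.65) and cholesterol synthesis (0.63) have the highest medians shown, complex I (0.02) and ATP synthase (0.01) lie at 0, and ribosomal proteins (-0.28) lie below it.

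Fat is also an endocrine organ, and of 40 secreted factors 6 rose and 3 fell (22.5%, against 5.33% of all genes tested). Serpina12 (vaspin) read 3584, 3508 and 3309 in the 6°C arrays, against 322, 188 and 287 in the 28°C arrays (3.74 ± 0.33, adjusted p = 1.6e-05). On the brighter of its 2 probe sets Bmp8b rose by 4.20 ± 0.29. The chemokine Cxcl14 (1.70 ± 0.32, adjusted p = 0.00342), the growth factor Fgf9 (1.63 ± 0.24, adjusted p = 0.00058), the prostaglandin D synthase Ptgds (1.48 ± 0.23, adjusted p = 0.00093) and the acute phase protein Orm1 (0.73 ± 0.14, adjusted p = 0.00396) also rose. Leptin, Lep, which reports fat stores to the brain, read 379.7, 1503 and 969 in the 6°C arrays, against 4867, 6762 and 5273 in the 28°C arrays (-2.76 ± 0.58, adjusted p = 0.00655), and its cold arrays differed nearly 4-fold among themselves. Igf1, which promotes growth, read 918, 1513 and 714 in the 6°C arrays, against 1577, 2953 and 3013 in the 28°C arrays (-1.27 ± 0.26, adjusted p = 0.00584), and array 2 at 6°C lay just below array 1 at 28°C. The 2 highest were the muscle-rich arrays, without which the difference was -0.66 (adjusted p = 0.352). Apoe, given above, was the other that fell. Apln, the apelin ligand, was at 1.62 ± 0.44 (adjusted p = 0.0276), while Adipoq was at -0.19 ± 0.09, Fgf21 at 0.27 ± 0.31, Nrg4 at -0.26 ± 0.17, Vegfa at 0.21 ± 0.20 and Il6 at 0.09 ± 0.31. Orm1 lost the call whichever BAT array was left out, Cxcl14 without any array but array 1 at 28°C and Lep without any array but array 2 at 6°C. Igf1 lost it without arrays 1 or 3 at 6°C or arrays 2 or 3 at 28°C (highest adjusted p = 0.0193 to 0.0343). Serpina12, Bmp8b, Fgf9, Ptgds and Apoe also passed with the muscle covariate (the other calls, adjusted p = 0.0171 to 0.0455) and Serpina12 and Bmp8b without the muscle-rich arrays (the others, adjusted p = 0.0152 to 0.352). On average Bmp8b and Fgf9 at 28°C lay under the array medians.

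Of 37 receptors for metabolites, lipids and peptides 2 rose and 3 fell. Ffar4 (GPR120), which binds long-chain fatty acids, read 3667, 3721 and 4048 in the 6°C arrays, against 793, 491 and 466 in the 28°C arrays (2.75 ± 0.21, adjusted p = 7.5e-06). The dopamine receptor Drd1 rose (1.27 ± 0.21, adjusted p = 0.00156), and Sucnr1, which binds succinate (-1.67 ± 0.37, adjusted p = 0.00856), Sctr, the secretin receptor (-1.56 ± 0.28, adjusted p = 0.00215), and Mc2r, the corticotropin receptor (-1.54 ± 0.29, adjusted p = 0.0033), fell. Cyp2b10, a cytochrome P450 of xenobiotic metabolism, read 736, 718 and 2511 in the 6°C arrays, against 152, 113 and 199 in the 28°C arrays (2.87 ± 0.51, adjusted p = 0.0024), where cold array 3 stood over 3-fold above the other two, and Cyp2r1, a vitamin D 25-hydroxylase, rose (1.53 ± 0.20), while 0 of 70 P450 genes fell. In retinoid metabolism Rdh16 rose (2.52 ± 0.36) and Adh1 fell (-0.96 ± 0.18) of 32 genes. Of 80 potassium channels 0 rose and 1 fell, Kcnq5 (-1.01 ± 0.19). Sucnr1 lost the call without any array but array 2 at 6°C, Kcnq5 without arrays 1, 2 or 3 at 6°C or array 3 at 28°C and Sctr without arrays 1 or 3 at 6°C or array 3 at 28°C. Mc2r and Adh1 lost theirs without array 3 at 6°C or arrays 2 or 3 at 28°C and Cyp2b10 without array 3 at 6°C or array 2 at 28°C (highest adjusted p = 0.0134 to 0.0477). Ffar4, Drd1, Cyp2r1 and Rdh16 also passed with the muscle covariate (the other calls, adjusted p = 0.0124 to 0.0476) and Ffar4 and Rdh16 without the muscle-rich arrays (the others, adjusted p = 0.0402 to 0.229). On average Drd1, Cyp2r1 and Rdh16 at 28°C and Sucnr1 at 6°C lay under the array medians.

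Among growth factor families, 2 of 55 genes of BMP and TGF-beta signalling rose and 3 fell (9.09%, against 5.33% of all genes tested). Beside Bmp8b, the activin antagonist Fstl3 rose (1.24 ± 0.25), while the ligand Gdf5 (-1.67 ± 0.28, adjusted p = 0.0017), the transducer Smad1 (-0.74 ± 0.14) and the BMP target Id2 (-0.84 ± 0.18) fell. Id2 and Smad1 act in the BMP pathway of which Bmp8b is a ligand, and the inhibitory Smads Smad6 and Smad7 were at 1.05 ± 0.27 and 1.29 ± 0.30 (adjusted p = 0.0223 and 0.0118). Of 28 FGF genes Fgf9 rose and Fgf14, an intracellular member that binds sodium channels, fell (-1.92 ± 0.32, adjusted p = 0.00161). Angpt1, which stabilizes vessels through the receptor Tie2, read 354, 389 and 233.8 in the 6°C arrays, against 1748, 1406 and 1161 in the 28°C arrays (-2.16 ± 0.27, adjusted p = 0.00018), the 1 gene of 15 VEGF and angiopoietin genes to pass, and its antagonist Angpt2 was at 0.49 ± 0.18. Of 47 Wnt genes Rspo4 rose (2.03 ± 0.35) and the receptor Fzd5 fell (-1.27 ± 0.24), and Igf1 was the 1 of 15 insulin-like growth factor genes to pass. Of 42 cell cycle genes 1 rose, Ccnd1 (cyclin D1, 1.26 ± 0.26, adjusted p = 0.00512), and mitotic genes had wide errors, at 0.91 ± 0.55 for Cdk1, 0.99 ± 0.65 for Ccnb2 and 0.84 ± 0.80 for Birc5. Fstl3, Id2 and Ccnd1 lost their calls whichever BAT array was left out, Smad1 and Fzd5 without any array but array 2 at 6°C and Igf1 without arrays 1 or 3 at 6°C or arrays 2 or 3 at 28°C. Fgf14 and Rspo4 lost theirs without array 3 at 6°C (highest adjusted p = 0.0102 to 0.0339). Gdf5, Fgf9, Fgf14, Angpt1 and Bmp8b also passed with the muscle covariate (the other calls, adjusted p = 0.0109 to 0.0455) and Angpt1 and Bmp8b without the muscle-rich arrays (the others, adjusted p = 0.045 to 0.352). On average Fstl3 at 28°C lay under the array medians.

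In the extracellular matrix, none of 42 collagens passed (14 at an unadjusted p under 0.05 from limma, median -0.28, 15 positive). Of 73 matrix enzymes, crosslinkers and proteoglycans 3 rose, Ncan (3.48 ± 0.40 on its brightest probe set), the crosslinking Loxl1 (1.63 ± 0.23, adjusted p = 0.0005) and the heparan sulfate proteoglycan Sdc4 (1.20 ± 0.18, adjusted p = 0.00062), and 4 fell, Tnc (-1.37 ± 0.25), Ogn (-1.13 ± 0.25), Timp4 (-1.0 ± 0.21) and Dcn (-0.67 ± 0.14). The fibroblast and precursor list had 1 positive difference among 17 genes (median -0.51), of which Dlk1, a marker of preadipocytes (-1.21 ± 0.25, adjusted p = 0.00557), and Dcn fell. Its mean log2 intensity was 10.01, 10.44 and 9.80 at 6°C, against 10.32, 10.66 and 10.79 at 28°C, and cold array 2, the one with the most muscle RNA at 6°C, overlapped the warm arrays. Ogn and Dcn lost their calls without any array but array 2 at 6°C, Timp4 without any array but array 1 at 28°C and Dlk1 without arrays 1 or 3 at 6°C or arrays 2 or 3 at 28°C. Tnc lost it without arrays 2 or 3 at 6°C or array 3 at 28°C (highest adjusted p = 0.0157 to 0.0448). Loxl1, Sdc4 and Ncan also passed with the muscle covariate (the other calls, adjusted p = 0.0164 to 0.0599) and Ncan without the muscle-rich arrays (the others, adjusted p = 0.0252 to 0.234). On average Tnc at 6°C lay under the array medians.

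The immune lists held 243 genes, of which 2 rose and 7 fell (3.7%, against 5.33% of all genes tested). Of 60 interleukins and receptors 0 rose and 3 fell: Il33, an alarm signal to innate lymphoid cells, at 168, 257 and 96.0 in the 6°C arrays, against 334, 490.2 and 801 in the 28°C arrays (-1.66 ± 0.35, adjusted p = 0.00601, and -1.05 without the muscle-rich arrays), Il18 (-1.19 ± 0.14, adjusted p = 0.0001) and Il25 (-1.47 ± 0.24, adjusted p = 0.00134). Of 53 chemokine genes Cxcl14 and the decoy receptor Ackr4 (1.05 ± 0.17) rose and 0 fell. Of 29 interferon-stimulated genes Gbp2 (-1.08 ± 0.20, adjusted p = 0.00311) and the RNA sensor Ifih1 (-1.05 ± 0.16, adjusted p = 0.00083) fell, 5 had a positive difference and the median was -0.33. Among macrophage markers 1 of 22 fell, Cd14 (-0.83 ± 0.18), 3 were positive and the median was -0.44. Their mean log2 intensity was 8.79, 9.10 and 8.64 at 6°C, against 9.06, 9.26 and 9.47 at 28°C, where cold array 2 overlapped the warm arrays. Of 15 natural killer and mast cell markers 1 fell, Kit, the stem cell factor receptor of mast cells, at 389.8, 506 and 400.2 in the 6°C arrays, against 1396, 1239 and 1362 in the 28°C arrays (-1.63 ± 0.33, adjusted p = 0.00495). That list did not overlap between the groups, at 6.26, 6.60 and 6.19 at 6°C, against 6.94, 6.98 and 7.18 at 28°C (mean log2 intensity). Lists such as brown adipocytes, cytoplasmic ribosomal proteins, interferon-stimulated genes and glutathione S-transferases did not overlap either, nor did 39.9% of all single genes. T cell and B cell markers (15 and 12 genes, medians 0.07 and -0.04) and MHC class II (10 genes, median -0.41) had 0 past the threshold, with 0, 0 and 2 at an unadjusted p under 0.05, and none of 29 complement genes passed (11 at an unadjusted p under 0.05). Kit lost the call whichever BAT array was left out, Gbp2 without any array but array 1 at 6°C and Cd14 without any array but array 2 at 6°C. Cxcl14 lost it without any array but array 1 at 28°C and Il33 without arrays 1 or 3 at 6°C or arrays 2 or 3 at 28°C (highest adjusted p = 0.0157 to 0.0478). Il18, Il25 and Ifih1 also passed with the muscle covariate (the other calls, adjusted p = 0.0102 to 0.0436) and none without the muscle-rich arrays (adjusted p = 0.018 to 0.268). On average Il25 at 6°C lay under the array medians.

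The vessel and nerve lists held 51 genes, of which 2 rose and 2 fell (7.84%, against 5.33% of all genes tested). Of 20 endothelial markers Eng, a TGF-beta coreceptor, rose (0.82 ± 0.17, adjusted p = 0.00521) and Aplnr, the apelin receptor, fell (-1.5 ± 0.23, adjusted p = 0.00072), with a mean log2 intensity of the list of 10.52, 10.51 and 10.48 at 6°C, against 10.43, 10.37 and 10.52 at 28°C. Of 15 pericyte and smooth muscle markers 1 rose, Higd1b (1.43 ± 0.23, adjusted p = 0.00125), and of 16 Schwann cell and nerve markers 1 fell, Scn7a (-0.82 ± 0.18). Of 11 white adipocyte markers Lep fell and Mest, an imprinted gene of fat expansion, rose (0.70 ± 0.15, adjusted p = 0.00706). These made 18.2% of the list, against 5.33% of all genes tested. In the list 3 genes had a positive difference, and the median was -0.32. None of 6 erythrocyte markers passed (1 at an unadjusted p under 0.05, median -0.02). Macrophage, fibroblast, white adipocyte and muscle lists were all lower on average at 6°C, and how far 1 of them moved with another was not tested. Mest lost the call whichever BAT array was left out, Lep without any array but array 2 at 6°C and Eng without arrays 2 or 3 at 6°C or arrays 1 or 2 at 28°C. Scn7a lost it without arrays 1 or 3 at 6°C or arrays 2 or 3 at 28°C (highest adjusted p = 0.0317 to 0.0404). Aplnr also passed with the muscle covariate (the other calls, adjusted p = 0.011 to 0.0547) and none without the muscle-rich arrays (adjusted p = 0.044 to 0.287).

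**Figure D4:**
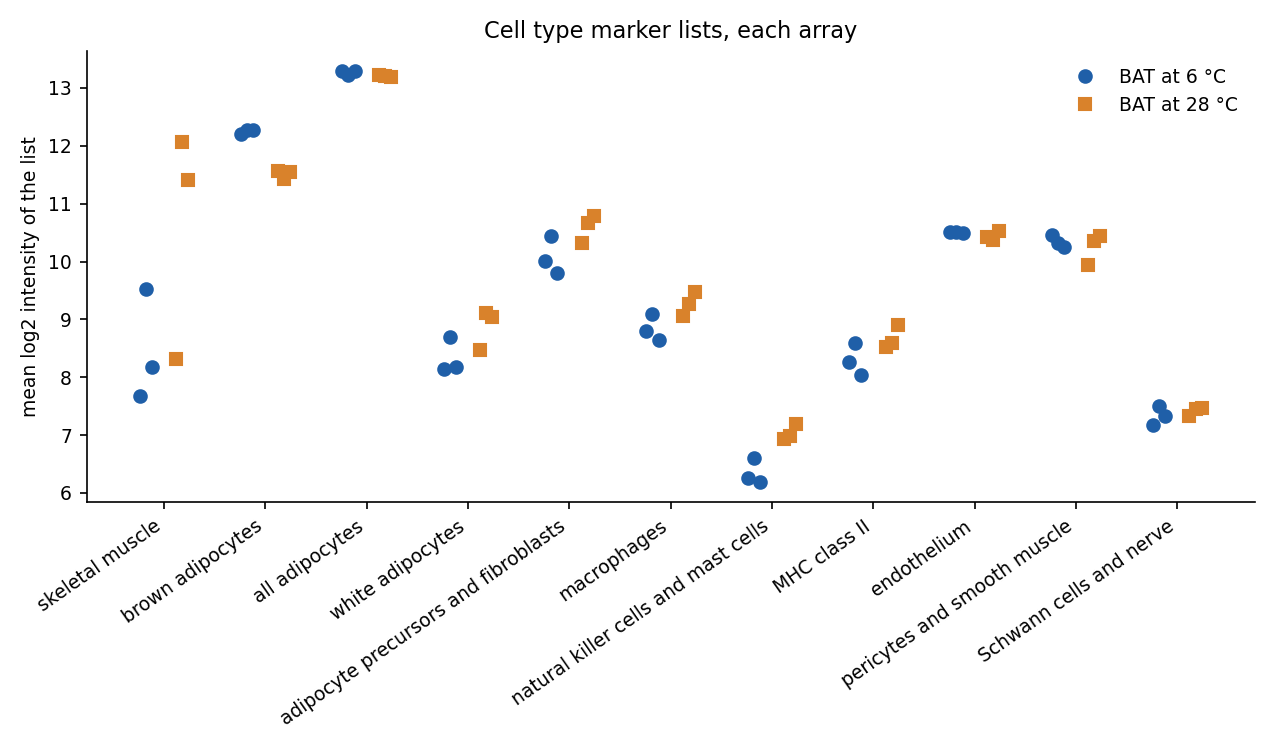
Mean log2 intensity of 11 cell type marker lists in each BAT array, with circles at 6°C and squares at 28°C. Skeletal muscle is highest in 2 of the 3 arrays at 28°C (12.07 and 11.42), and all-adipocyte markers lie at 13.19 to 13.29 in all 6 arrays. Brown adipocyte markers, and natural killer and mast cell markers, do not overlap between the groups, nor do 39.9% of all single genes. The brown adipocyte list shown holds Elovl3. Without Elovl3 its means were 12.14, 12.22 and 12.19 at 6°C, against 12.05, 11.98 and 12.10 at 28°C.

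Genes of vesicle release ran both ways, with 4 that rose and 4 that fell of 76 (10.5%, against 5.33% of all genes tested). Beside Rims2, the active zone protein Pclo (1.55 ± 0.31, adjusted p = 0.00431), the synaptotagmin Syt11 (1.06 ± 0.19, adjusted p = 0.00207) and the SNARE Snap29 (0.78 ± 0.13, adjusted p = 0.00117) rose. Beside Rab17, the syntaxin-binding protein Stxbp6 (-1.42 ± 0.30, adjusted p = 0.00708) and the SNAREs Vamp1 (-0.71 ± 0.13) and Vamp4 (-0.67 ± 0.10) fell. Rims2, Pclo and Ncan are best known from neurons, and the mean log2 intensity of the Schwann cell and nerve list was 7.17, 7.5 and 7.33 at 6°C, against 7.32, 7.46 and 7.47 at 28°C, with overlapping groups. Of 64 neurotrophin, semaphorin and axon guidance genes 0 rose and 4 fell (6.25%, against 5.33% of all genes tested). These were the GDNF family receptors Gfra4 (-1.70 ± 0.31, adjusted p = 0.00244) and Gfra2 (-0.60 ± 0.13, and -0.38 without the muscle-rich arrays), and Plxna3 (-1.06 ± 0.19) and Sema6b (-0.82 ± 0.17) of semaphorin signalling. Sema6b lost the call whichever BAT array was left out, Pclo without any array but array 1 at 6°C and Stxbp6 without any array but array 2 at 6°C. Gfra2 lost it without any array but array 1 at 28°C, Vamp1 and Gfra4 without arrays 1 or 3 at 6°C or array 3 at 28°C and Syt11 without array 2 at 6°C or array 2 at 28°C. Plxna3 lost it without arrays 2 or 3 at 28°C (highest adjusted p = 0.0133 to 0.0435). Rims2, Rab17, Vamp4 and Ncan also passed with the muscle covariate (the other calls, adjusted p = 0.0105 to 0.0602) and Rims2, Rab17 and Ncan without the muscle-rich arrays (the others, adjusted p = 0.0375 to 0.352). On average Rims2 and Pclo at 28°C and Rab17 and Plxna3 at 6°C lay under the array medians.

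The cold response of BAT was also set against those of both white depots, gene by gene, as the difference of differences in the same fit. It differed from both at an adjusted p under 0.01 in 52 of 18193 genes (0.286%), 26 with a more positive and 26 with a more negative response in BAT, and leaving out 1 BAT array gave 14 (without array 2 at 28°C) to 30 genes (without array 2 at 6°C). Bmp8b had a response of 4.20 in BAT, against 0.82 in sWAT and 0.13 in mWAT, and Acot12 of 4.0 in BAT, against 0.68 in sWAT and 0.75 in mWAT. For Rims2 the responses were 3.86 in BAT, against 0.47 in sWAT and 0.05 in mWAT. Ntsr2, a neurotensin receptor (2.79 in BAT, against -0.05 in sWAT and -0.26 in mWAT), and Lgr6, an R-spondin receptor (2.63 in BAT, against -0.93 in sWAT and -0.22 in mWAT), also had a higher response in BAT. Both calls in BAT held without any 1 array and with the muscle covariate. Without the muscle-rich arrays their differences in BAT were 2.81 and 1.97. The differences between depots were fitted in neither muscle setting. Genes are ordered here by the smaller of their 2 differences, and Mfsd2a, a lysophospholipid transporter just outside the 5 by that order (2.57 in BAT, against -1.28 in sWAT and -0.26 in mWAT), had a larger difference from sWAT than any of them. Rab17 (-3.84 in BAT, against 0.20 in sWAT and 0.13 in mWAT), Snhg11 (-3.75 in BAT, against 0.10 in sWAT and -0.50 in mWAT), Slc16a7 (-2.91 in BAT, against 0.22 in sWAT and -0.16 in mWAT) and D630004K10Rik (-2.80 in BAT, against 0.54 in sWAT and 0.18 in mWAT) fell in BAT. Ucp1 was the 1 gene of the 52 that was not called in BAT, at 0.34 in BAT, against 3.65 in sWAT and 3.02 in mWAT. Elovl3, the largest rise in BAT, was not among the 52, with 4.96 in sWAT and 3.04 in mWAT.

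**Figure D5:**
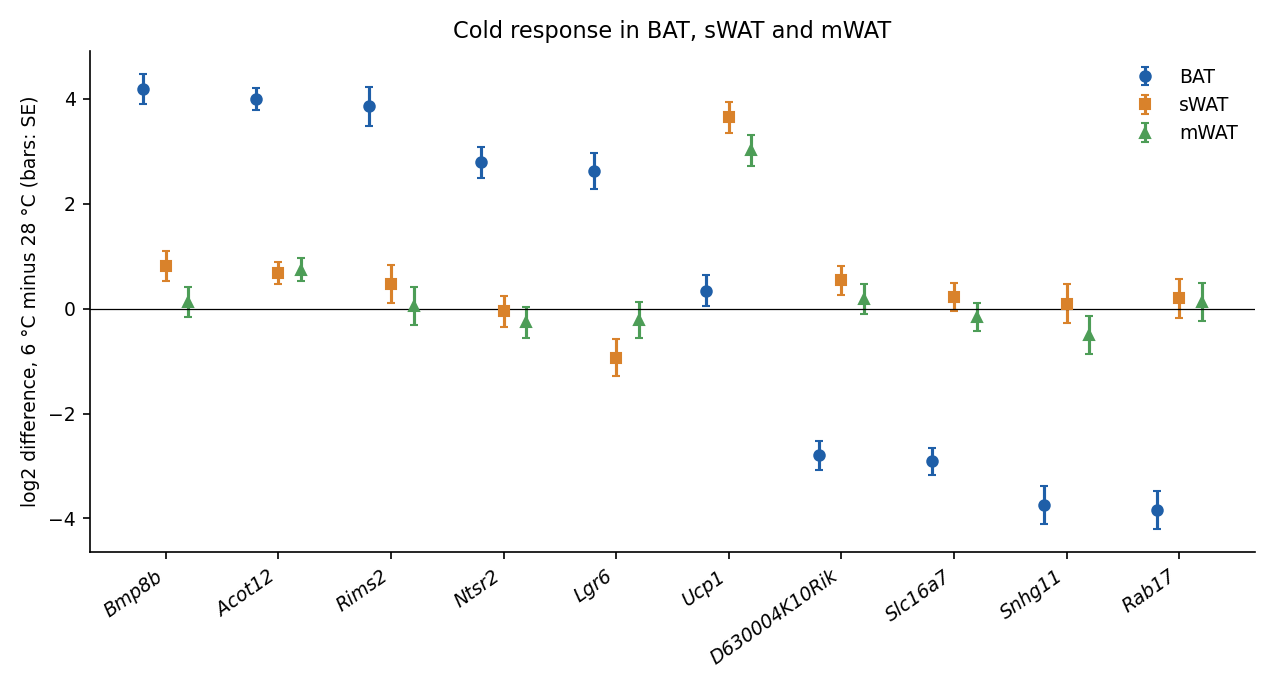
Log2 difference (6°C minus 28°C) in BAT, sWAT and mWAT for the 5 genes with the largest positive and the 5 with the largest negative difference of the BAT response (by the smaller of the differences from sWAT and mWAT), with bars of 1 SE (the same for the 3 depots of a gene, from 1 fit). Bmp8b, Acot12, Rims2, Ntsr2 and Lgr6 have a far higher response in BAT than in either white depot, and Ucp1 is high in sWAT (3.65) and mWAT (3.02) and near 0 in BAT (0.34).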

How the data were processed

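Affymetrix arrays of 3 samples for each of 6 groups (3 fat depots at 6 or 28°C) were used, 6 of them BAT. Per the study's methods RNA was amplified (NuGEN Ovation) and labelled with biotin, and arrays were background adjusted, summarized and normalized in R/Bioconductor, with the algorithm not given in the sources used here. The array type is named differently among those sources. The authors deposited 1 linear normalized intensity per probe set in the series table, and no scanner files were used here.

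Control probe sets (64 of 45101) were left out, intensities were set to log2 with no further normalization, and 45037 probe sets were fitted in limma 3.58.1 (R 4.3.3) with 1 mean for each of 6 groups, 12 residual degrees of freedom and empirical Bayes variances. P-values were adjusted by Benjamini-Hochberg over all probe sets, and a call needs an adjusted p under 0.01. Adjusted p-values in the text are from this fit. A gene is its probe set of highest mean over 18 arrays, among 34945 probe sets with 1 gene symbol in the platform annotation (18193 genes). The text on the largest changes uses the probe set of largest change. Samples are biological replicates per the study's methods.

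The members and the 88 gene lists (2362 of 2623 genes with a probe set) were chosen with earlier results of these data known. Named genes are the 10 largest rises and falls, taken only from called probe sets whose 2 groups do not overlap. Up to 6 called members of each list are named (up to 3 as values where none or 1 passed), and any member of the thermogenic, adrenergic, clock and cell type lists. The 5 largest depot differences each way, genes with a promoter shown and genes that spell out a count of 5 or fewer are named too. Other genes were named after their values were seen. Promoters and coordinates are RefSeq's (GRCm38.p6), and motifs were counted on both strands. Alternatives were other thresholds, normalizations, dim probe sets left out, a variance trend, BAT arrays alone, a muscle covariate and leaving out arrays. The fit was tested on simulated data.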

Additional observations from a re-analysis of the deposited data

Results flagged for a closer look

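The cold response of BAT differed from those of both white depots, by a test of the difference itself (limma, adjusted p under 0.01), for the genes that follow, 5 in each direction, ordered by the smaller of their 2 differences. The BAT response minus the sWAT and minus the mWAT response was 3.38 and 4.06 for Bmp8b, 3.39 and 3.81 for Rims2, 3.32 and 3.25 for Acot12, 2.84 and 3.05 for Ntsr2, and 3.56 and 2.85 for Lgr6. It was -4.04 and -3.97 for Rab17, -3.85 and -3.25 for Snhg11, -3.34 and -2.98 for D630004K10Rik, -3.13 and -2.75 for Slc16a7, and -3.31 and -2.68 for Ucp1. Of these 10 genes Ucp1 alone had no call in BAT, where its intensity was near the upper end of the array at both temperatures.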

How the results depend on the processing

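Counts depended on the threshold and on how many arrays set the spread. In all, 2377 probe sets passed (1372 higher and 1005 lower, 969 genes). At an adjusted p under 0.05 there were 5500 (3033 and 2467, 2223 genes), and with at least 2-fold change 1289 (754 and 535, 519 genes). The 6 BAT arrays alone gave 928 (600 and 328, 384 genes), the muscle covariate 918 (563 and 355, 354 genes), and the fit without the 2 muscle-rich arrays 135 (99 and 36, 63 genes). Leaving out 1 BAT array gave 1072 to 1674 probe sets (657 to 1014 higher, 415 to 666 lower, 403 to 665 genes), and the lowest counts came without array 3 at 6°C. Quantile normalization, centring of arrays, leaving out dim probe sets, a variance trend with robust estimates and the mean over a gene's probe sets kept counts within 1.5 times. The count of genes whose BAT response differed from both white depots was 52, against 195 at an adjusted p under 0.05, 110 with dim probe sets left out, 91 with the variance trend, and 14 to 30 without 1 array.

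Of 179 called genes named by the rule, 167 kept their call under quantile normalization, 166 with centred arrays, 177 with the variance trend, 79 in the BAT arrays alone, 76 with the muscle covariate, 24 without the muscle-rich arrays and 86 to 126 without 1 array. Direction was kept in all of these fits. Leaving out arrays could not reverse it, because the 2 groups did not overlap in any called gene. Averaging probe sets kept 147 and reversed 1, Rpsa, at 0.07 (0.0658). No paired analysis was possible because the labels give no replicate numbers nor which arrays come from 1 mouse. With 3 arrays a group the number of arrays limits the precision, and on simulated data 36% of 2-fold and 79% of 4-fold changes were recovered. The simulation changed 100 of 45037 probe sets at each of these sizes, against 2377 probe sets called in the real data. Recovery with more changed probe sets was not tested.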

Other observations

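Probe sets of 1 gene did not always move alike. In 10 genes 1 probe set was higher and another lower at 6°C, each past the threshold: AU022252, Celf1, Eme2, Kdm2a, Lancl1, Ldah, Ndufab1, Nsa2, Tlk2 and Tmem69. Of the 2377 probe sets past the threshold 442 named no gene or several and were not described by gene. With 1 probe set per gene 509 genes were higher, against 908 genes with any probe set higher, and 460 were lower, against 619 with any probe set lower.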
